A study of Mus musculus with 32 samples.

Results

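The genes described here code for peroxisome proteins of the mouse liver: the peroxins that build the organelle and import its proteins, the enzymes that oxidise branched-chain fatty acids and bile acid intermediates, the first enzymes of ether lipid synthesis, small-molecule oxidases, and a set of hydrolases and membrane proteins. They were chosen by name as a list of 34 genes, of which 33 had a named probe on the array and 30 could be tested among 9954 genes in all. Liver RNA came from male C57BL/6J mice that were given a standard diet (SD, an AIN-93G diet with 17% of energy as fat, 64% as carbohydrate and 19% as protein) or a high-fat diet (HFD, with 61%, 16% and 23%), each alone or with disulfiram (DSF), a drug that inhibits aldehyde dehydrogenase, at 100 mg/kg/day (SDL and HFDL) or 200 mg/kg/day (SDH and HFDH). The food held 1 and 2 g/kg DSF in SDL and SDH, and 2.33 and 2.67 g/kg in HFDL and HFDH. The labels give an age of 56 weeks, and 58 weeks in the protocol text, and the feeding is given as 40 weeks from an age of 16 weeks, or in the design text as up to 41 weeks in mice of 14 weeks. The mice had not been fasted. No genetic change was made in any group, and each array shows whole liver, so that fewer cells of a type and less RNA per cell cannot be told apart.

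Peroxisomes are membrane-bound organelles in which fatty acids that mitochondria handle poorly are shortened, with hydrogen peroxide as a by-product. Their matrix proteins are made in the cytosol and are imported through a cycle of peroxins: the receptors PEX5 and PEX7 bind the cargo, PEX13 and PEX14 dock it, the PEX2 and PEX10 ubiquitin ligase marks the receptor, and PEX6, anchored by PEX26, pulls it back out. In rodent liver, ligands of the nuclear receptor PPAR-alpha enlarge the peroxisome compartment, and Pex11a is among the genes that they induce.

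There were 5 mice in SD, SDL and HFD and 4 in SDH, HFDL and HFDH after 1 mouse was left out of each of SDH, HFDL and HFDH, because only 6.56% to 27.2% of their probes were detected above the array's background, against 43.8% to 52.7% on the arrays kept. A signal is given below as log2 intensity, centred on the array's mean and set to a common spread, and a mouse is named by its group and its column number (SDH 17). Hepatocyte markers were bright in every mouse (Ttr, Apoa1, Cps1, Ass1 and Cyp2e1 all had a signal of at least 6.79), although the probe of Alb was detected in only 13 of 27 mice. The mean of 10 hepatocyte markers lay between 4.5 and 4.69 in SD and between 4.82 and 5.01 in SDH, and between 4.74 and 5.22 in HFD and 4.81 and 5.28 in HFDH, with 8 or 9 of the 10 detected in each of these mice. SDH and HFD thus each lay wholly above SD for these markers. Of the 9 tested, 2 (Alb and Serpina1a) were called in SDH-SD, both higher, and 0 in HFD-SD. In SDH-SD 1 of 6 stellate cell markers (lower) and 1 of 2 cholangiocyte markers (higher) were called too, against 7.08% of all genes. Their part in the members' values was not tested. Before it was set to a common spread, the SD of log2 intensity was 1.92 to 1.99 on the SD arrays, 1.86 to 1.93 on the SDH arrays and 1.85 to 1.92 on the HFD arrays. The part of this scaling in the marker means was not tested either. The mean of 14 pancreatic acinar transcripts was 3.29 above the median mouse in SD 2 and 6.34 above it in SDH 17, with all 14 detected in both. The SDH-SD values below are therefore also given without these 2 mice. The 4 listed genes with no test were Prdx5, which was not analysed here, and Phyh, Crot and Dao, whose probes were detected in 0 mice. Of the 30 tested genes, Pex10 and Far1 were each detected in 5 mice and Amacr in 16, and the other 27 in all 27 mice.

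A few of these genes fell with DSF at the high dose, none passed the test at the low dose or between the diets, and 1 gene, Mpv17, passed on both diets. In SDH-SD, 4 of 30 genes fell (13.3%, against 7.08% of all genes called in either direction and 4.27% called lower): Nudt12, Acox3, Pex11g and Mpv17. In HFDH-HFD, 2 of 30 fell (6.67%, against 4.39% called in either direction and 2.94% called lower): Pex3 and Mpv17. None rose, although Pxmp4 was called higher in SDH-SD when all 30 mice were fitted with array quality weights. In HFD-SD, HFDL-HFD and SDL-SD no member passed (0 of 30, against 0.934%, 0.462% and 0.653% of all genes called), and 5, 3 and 6 members had an unadjusted p under 0.05 in limma (16.7%, 10% and 20%, against 14%, 10.6% and 10.8% of all genes). The members' median log2 fold change was -0.12 in HFDH-HFD against -0.01 for all genes, and -0.04 in SDH-SD, where the median of all genes was also -0.04. HFDL-HFD and HFDH-HFD share their 5 control mice with HFD-SD, and SDL-SD and SDH-SD share the SD mice with it too.

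**Figure D1:**
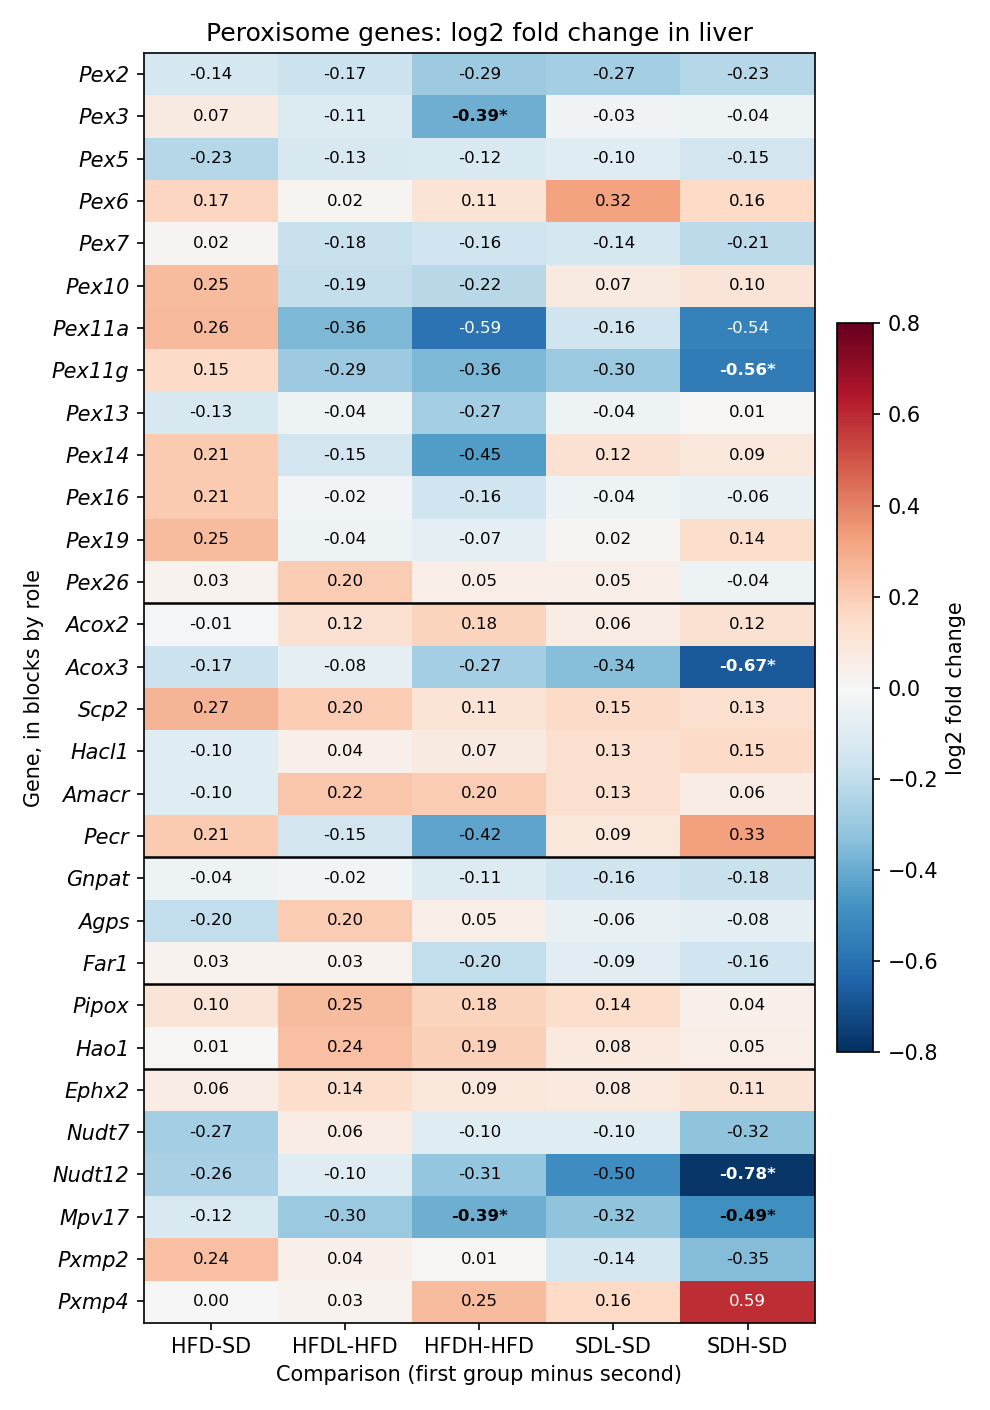
Log2 fold change of the 30 tested genes (rows, in blocks by role) in 5 comparisons (columns), first group minus second; asterisks and bold type mark an adjusted p under 0.05. Marked cells stand in the HFDH-HFD column (Pex3, Mpv17) and the SDH-SD column (Pex11g, Acox3, Nudt12, Mpv17), all of them negative, between -0.39 and -0.78.

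Groups that did not overlap were counted too. All HFDH mice lay below all HFD mice for 5 of 30 members (16.7%, against 5.47% of all genes), which were Pex3, Pex10, Pex11g, Pex14 and Mpv17, and none lay above. Of these, Pex10 passed the detection filter with the fewest mice allowed (5), of which 3 were HFD mice and 0 HFDH mice. All SDH mice lay below all SD mice for 4 members (13.3%, against 4.63%), the same 4 that passed the test. In SDL-SD, Nudt12 and Mpv17 lay wholly below (6.67%, against 1.23% of all genes) and Pex6 wholly above (3.33%, against 1.35%). In HFD-SD, Pex19 and Scp2 lay wholly above (6.67%, against 1.19%). For Scp2, the mean intensity before the scaling was lower in HFD than in SD. In HFDL-HFD, Pex11g alone lay wholly below (3.33%, against 3.2%). Between the doses, Nudt12 alone lay wholly below in SDH-SDL (3.33%, against 1.59% of all genes). In HFDH-HFDL no member lay wholly below or above (0%, against 1.77% and 1.7% of all genes).

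Among the 13 peroxins, Pex11g fell in SDH. PEX11G belongs to the PEX11 family, which shapes and divides the peroxisome membrane. Its signal was 3.13, 3, 3.1, 3.25 and 2.72 in SD 1 to 5, and 2.46, 2.58, 2.34 and 2.54 in SDH 13, 14, 15 and 17. Every SDH mouse lay below every SD mouse, a difference of -0.56 on the log2 scale (SE 0.11, 95% interval -0.79 to -0.33, 1.47-fold lower, adjusted p = 0.0043). In SDL the values were 2.9 (SDL 7), 2.33 (SDL 8), 2.84 (SDL 9), 2.83 (SDL 10) and 2.79 (SDL 11), so that the mean of 2.74 ± 0.23 (SD, n = 5) stood between those of SD and SDH, and SDL-SD did not pass (-0.3, SE 0.11, adjusted p = 0.23). On HFD, the signal was 3.02, 3.22, 3.12, 3.27 and 3.34 in HFD 1 to 5. It was 3.01, 2.82, 2.97 and 2.82 in HFDL 7, 8, 9 and 11, and 2.87, 2.83, 2.63 and 3 in HFDH 13, 14, 15 and 17. Both DSF groups lay wholly below HFD, but neither comparison passed the test (HFDL-HFD -0.29, adjusted p = 0.34; HFDH-HFD -0.36, SE 0.11, adjusted p = 0.07).

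Pex3, whose protein sits in the membrane and receives the membrane proteins that PEX19 carries, fell in HFDH. The signal was 2.54, 2.55, 2.51, 2.38 and 2.64 in HFD 1 to 5, and 1.99, 2.18, 2.26 and 2.1 in HFDH 13, 14, 15 and 17. The groups did not overlap, and the difference was -0.39 (SE 0.11, 95% interval -0.6 to -0.17, 1.31-fold lower, adjusted p = 0.034). The HFDL mice (2.24, 2.52, 2.44 and 2.46 in HFDL 7, 8, 9 and 11) overlapped the HFD mice, and HFDL-HFD was -0.11 (SE 0.11). On SD the groups overlapped: the values were 2.19, 2.29, 2.63, 2.61 and 2.53 in SD 1 to 5, 2.35, 2.56, 2.16, 2.48 and 2.58 in SDL 7 to 11, and 2.59, 2.29, 2.46 and 2.3 in SDH 13, 14, 15 and 17, with SDH-SD at -0.04 (95% interval -0.26 to 0.18). The call rests on 1 of the gene's 2 detected probes, since the other gave -0.12 (SE 0.1, adjusted p over all probes 0.52) in the same mice, and it was lost without any one of SD 5, HFD 1, 2, 3 or 5, HFDL 8, or HFDH 13, 14 or 17, with adjusted p between 0.052 and 0.51. The highest values came without SD 5 or HFDL 8, where the second probe had the higher mean signal and replaced the first at -0.12.

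Pex11a is named here after its values were seen. Its product promotes peroxisome elongation and division, and the gene was probed at 3 places. In HFDH-HFD the probe that stands for the gene gave -0.59 (SE 0.19, adjusted p = 0.071) and in SDH-SD -0.54 (SE 0.19, adjusted p = 0.076), neither past the test. It did pass in both with median centring, quantile normalization, neqc, the mean of its probes and the methods' criteria, and in HFDH-HFD also with array quality weights (adjusted p = 0.016) and without the mice with acinar transcripts (0.041). Its signal ran from 4.79 to 5.53 in HFD, 4.4 to 5.09 in HFDL and 4.04 to 4.95 in HFDH, and from 4.63 to 5.13 in SD, 4.45 to 5 in SDL and 3.82 to 4.68 in SDH. The groups overlapped, and the lowest values of the high-dose groups were those of SDH 17 and HFDH 17. Without the 2 mice with acinar transcripts SDH-SD was -0.36 (adjusted p = 0.29). The other 2 probes of Pex11a gave -0.63 and -0.87 in HFDH-HFD and -0.55 and -0.41 in SDH-SD. When all detected probes were tested, 4.22% of 13275 were called in HFDH-HFD and 7.39% in SDH-SD, and these 2 probes had adjusted p of 0.023 and 0.00029 in the former and 0.035 and 0.052 in the latter. All 3 probes thus pointed down in both comparisons, as they did at the low dose, with -0.34 to -0.56 in HFDL-HFD and -0.16 to -0.26 in SDL-SD. The probe at -0.56 in HFDL-HFD (SE 0.13) was called over all probes, at an adjusted p that rounds to 0.05. It was the 1 probe called there of the members' 49 detected probes, where 0.462% of all genes were called.

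Of the other peroxins, Pex14 came nearest to the threshold in HFDH-HFD, at -0.45 (SE 0.13, adjusted p = 0.057), with 2.56 to 3 in HFDH against 3.19 to 3.45 in HFD. It was at 0.09 (SE 0.13) in SDH-SD. Over all 13 peroxins, 11 estimates were below 0 in HFDH-HFD (84.6%, against 50.9% of all genes) with a median of -0.22, and 7 had an unadjusted p under 0.05, all of them lower (53.8%, against 11% of all genes that were lower at that level). Pex10, detected in 3 HFD mice and 0 HFDH mice, is among both the 11 and the 7. In HFDL-HFD 11 of 13 were also below 0 (84.6%, against 53.3%) with a median of -0.13, and 1 was lower at an unadjusted p under 0.05 (7.69%, against 6.79% lower of all genes). In SDH-SD 8 of 13 were below 0 (61.5%, against 57.3% of all genes) with a median of -0.04, and 2 were lower at an unadjusted p under 0.05 (15.4%, against 14.3% lower of all genes). In HFD-SD the peroxins' median was 0.15, with 3 of 13 estimates below 0 (23.1%, against 57.3%), on the scaled signal. Before the scaling, the mean intensity of Pex3, Pex6, Pex7 and Pex26 was lower in HFD than in SD, though their estimates were above 0. That of Pex10, Pex11a, Pex14, Pex16 and Pex19 was higher, and that of Pex11g was equal. The part of the scaling was not tested. The ligase genes Pex2 and Pex10 and the docking gene Pex13 lay between -0.29 and 0.25 in the 5 comparisons. The receptors Pex5 and Pex7 and the ATPase gene Pex6 lay between -0.23 and 0.32, and Pex16, Pex19 and Pex26 between -0.16 and 0.25.

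**Figure D2:**
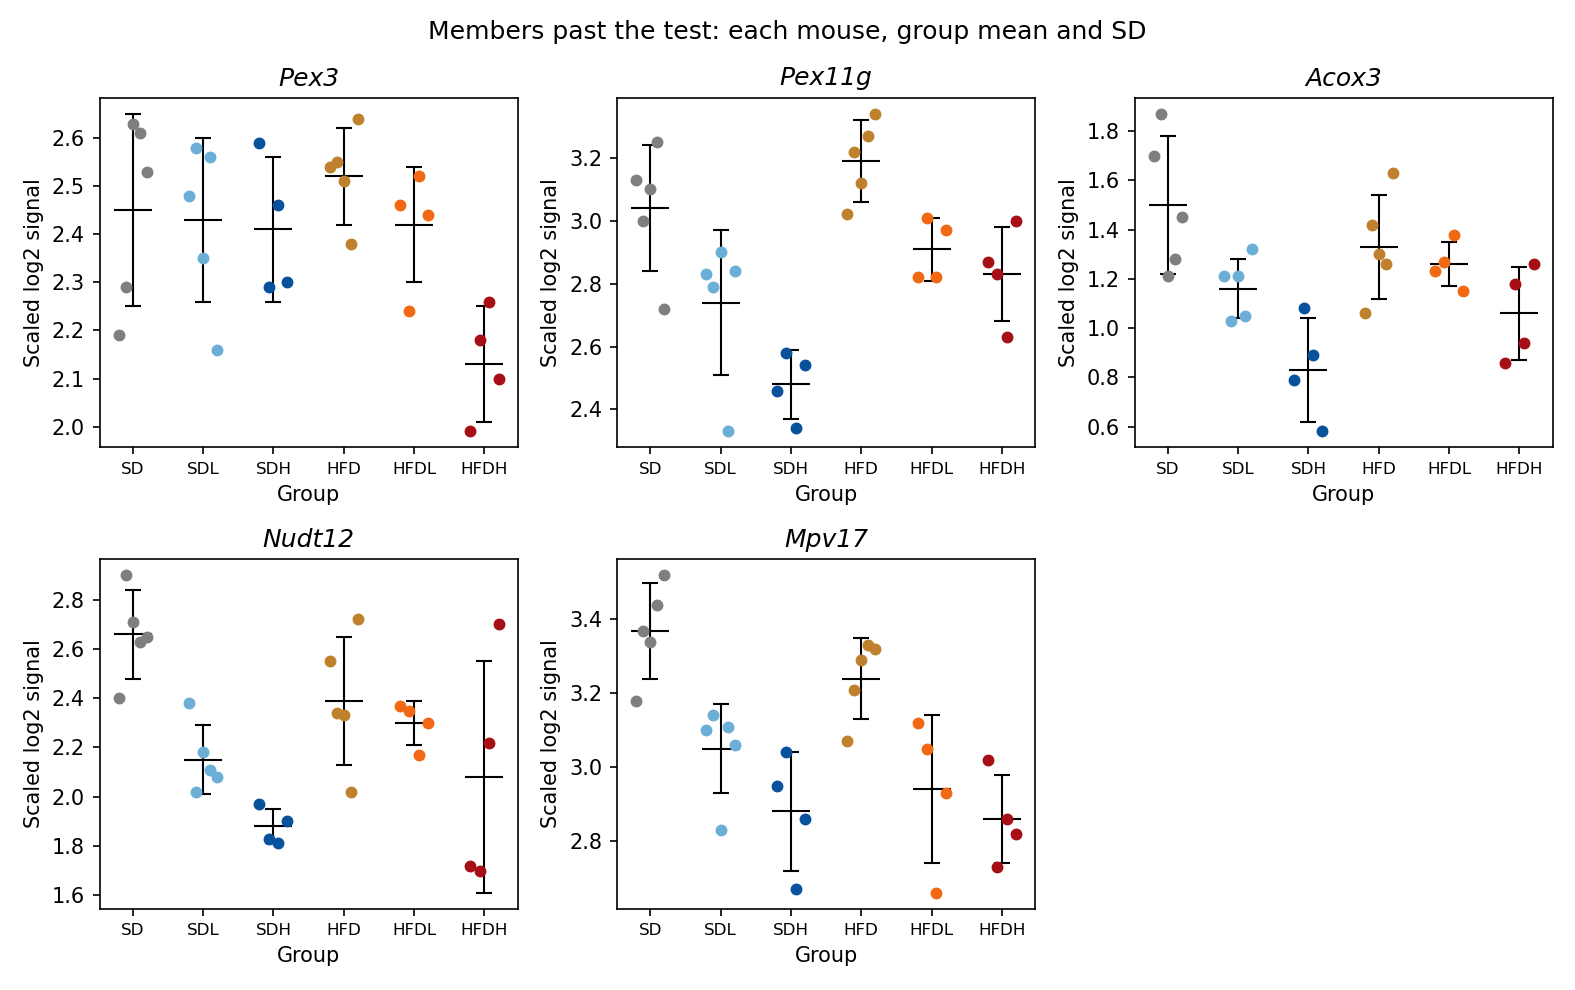
Scaled log2 signal (vertical axis) of the 5 genes that passed a test, by group (horizontal axis); points are mice, and the bar and whiskers are the group mean and SD (n = 4 or 5). For Pex11g, Acox3, Nudt12 and Mpv17 the SDH points lie below all SD points, and for Pex3 and Mpv17 the HFDH points lie below all HFD points.

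Of the genes for oxidation of branched-chain fatty acids and bile acid intermediates, Acox3 fell in SDH. It codes for an acyl-CoA oxidase that takes branched-chain substrates such as pristanoyl-CoA. The signal was 1.7, 1.87, 1.21, 1.28 and 1.45 in SD 1 to 5, and 0.79, 1.08, 0.89 and 0.58 in SDH 13, 14, 15 and 17. The groups did not overlap, with a difference of -0.67 (SE 0.13, 95% interval -0.94 to -0.4, 1.59-fold lower, adjusted p = 0.0034). The 2 mice with acinar transcripts were the highest of SD and the lowest of SDH, and without them the value was -0.49 (adjusted p = 0.041). In SDL the values were 1.21, 1.05, 1.32, 1.21 and 1.03 in SDL 7 to 11 (SDL-SD -0.34, SE 0.12, adjusted p = 0.25). On HFD they were 1.06, 1.42, 1.3, 1.26 and 1.63 in HFD 1 to 5, 1.27, 1.38, 1.15 and 1.23 in HFDL 7, 8, 9 and 11, and 0.86, 1.18, 0.94 and 1.26 in HFDH 13, 14, 15 and 17. These 3 groups overlapped, and HFDH-HFD was -0.27 (SE 0.13, adjusted p = 0.24).

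The other 5 tested genes of this role did not pass in any comparison. Acox2, which oxidises the side chain of bile acid intermediates, was the steadiest of the 4 high-signal members that passed no test: its mouse values ran from 5.32 to 5.82, and its estimates from -0.01 to 0.18. Scp2, the gene of a thiolase and lipid transfer protein, stood at 7.37, 7.56, 7.59, 7.54 and 7.4 in SD 1 to 5 and at 7.74, 7.68, 7.8, 7.76 and 7.82 in HFD 1 to 5. These groups did not overlap, yet HFD-SD did not pass (0.27, SE 0.1, adjusted p = 0.21). Before the scaling, the geometric mean intensity was not higher in HFD (25800) than in SD (26700). The probes disagreed, since the gene's other 2 gave 0.3 and -0.02 in HFD-SD. They disagreed in SDH-SD as well, a feature picked out after the values were seen: the first 2 probes gave 0.13 and 0.06, and the third gave -0.47 (SE 0.14, adjusted p over all probes 0.046). Hacl1, Amacr and Pecr lay between -0.42 and 0.33 over the 5 comparisons, and Pecr gave the extreme at both ends, -0.42 in HFDH-HFD (adjusted p = 0.2) and 0.33 in SDH-SD.

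The ether lipid genes Gnpat, Agps and Far1, whose enzymes make the first ether-linked intermediates and the fatty alcohol for them, gave estimates from -0.2 to 0.2, and none passed. The oxidase genes did not pass either. Hao1, which codes for glycolate oxidase, ran from 5.7 to 6.04 in SD, 5.55 to 6.18 in SDL, 5.67 to 6.11 in SDH, 5.68 to 6.13 in HFD, 6 to 6.19 in HFDL and 5.8 to 6.24 in HFDH. Its estimate was highest in HFDL-HFD, at 0.24 (SE 0.12, 95% interval -0.01 to 0.49, adjusted p = 0.49), and Pipox, for pipecolic acid oxidase, was at 0.25 there.

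**Figure D3:**
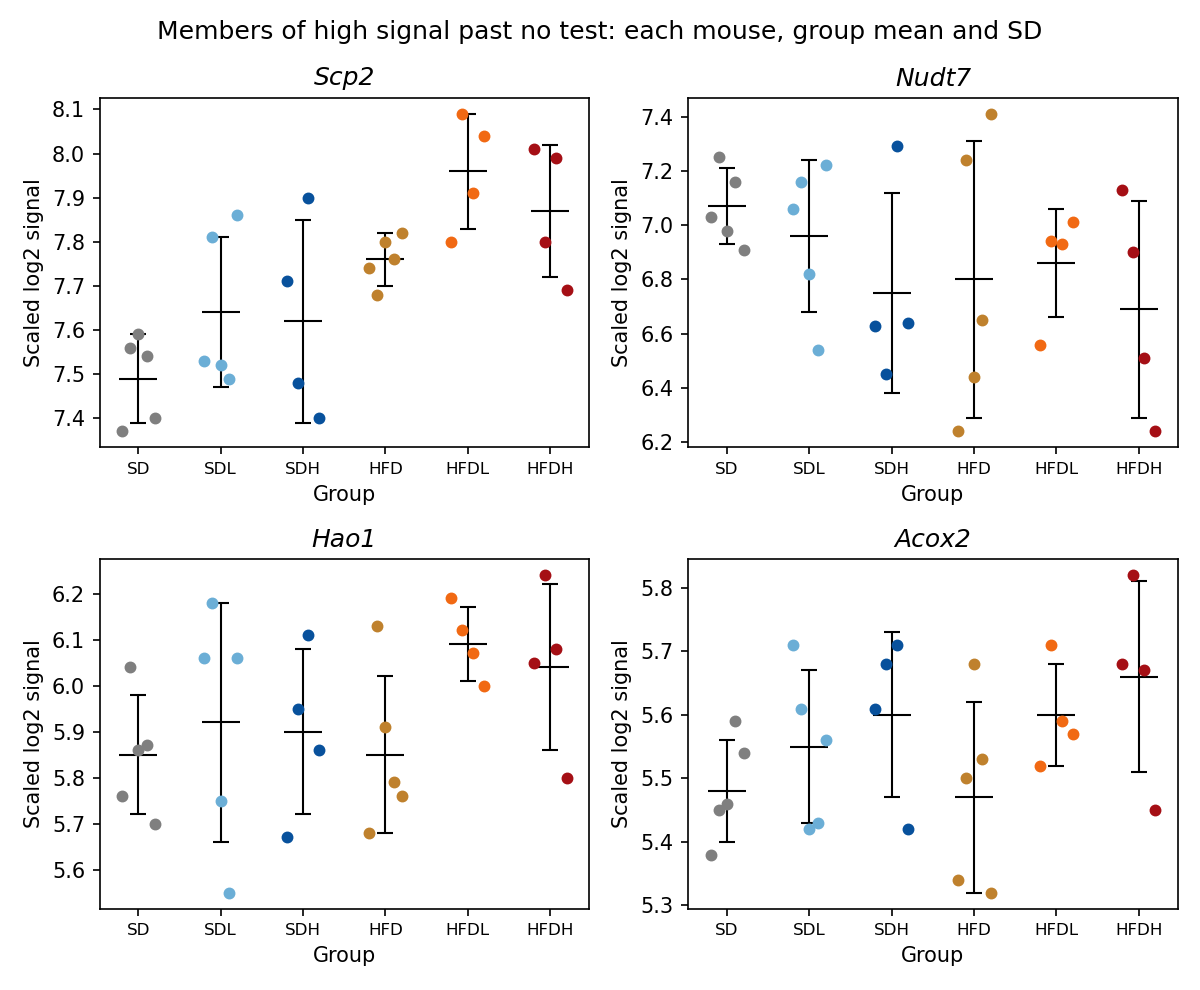
Scaled log2 signal (vertical axis) of Scp2, Nudt7, Hao1 and Acox2 by group (horizontal axis); points are mice, and the bar and whiskers are the group mean and SD (n = 4 or 5). The DSF groups overlap their diet controls in all 4 panels, and on this scale the HFD points lie above the SD points for Scp2.

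In the remaining role, Nudt12 and Mpv17 fell. NUDT12 hydrolyses NADH and related dinucleotides. Its signal was 2.4, 2.9, 2.71, 2.63 and 2.65 in SD 1 to 5, 2.18, 2.11, 2.08, 2.38 and 2.02 in SDL 7 to 11, and 1.97, 1.83, 1.81 and 1.9 in SDH 13, 14, 15 and 17. No 2 of these 3 groups overlapped. SDH-SD was -0.78 (SE 0.15, 95% interval -1.1 to -0.46, 1.72-fold lower, adjusted p = 0.0036), SDL-SD was -0.5 (SE 0.15, adjusted p = 0.13) and SDH-SDL was -0.28 (SE 0.15, adjusted p = 0.62). On HFD the values were 2.55, 2.34, 2.33, 2.02 and 2.72 in HFD 1 to 5, 2.35, 2.17, 2.3 and 2.37 in HFDL 7, 8, 9 and 11, and 1.72, 1.7, 2.22 and 2.7 in HFDH 13, 14, 15 and 17. HFDH 17 stood near the highest HFD mouse, and HFDH-HFD did not pass (-0.31, SE 0.15, adjusted p = 0.26). Without HFDH 17, Nudt12 passed in both HFDH-HFD (1 of 4 members called) and SDL-SD (the only member called).

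Mpv17 was the gene called lower at the high dose on both diets. Its protein was first placed in the peroxisome membrane and is now known mainly from the inner mitochondrial membrane, where it is needed to keep mitochondrial DNA. The signal was 3.18, 3.37, 3.34, 3.44 and 3.52 in SD 1 to 5, 2.83, 3.11, 3.06, 3.1 and 3.14 in SDL 7 to 11, and 2.95, 3.04, 2.67 and 2.86 in SDH 13, 14, 15 and 17. Both DSF groups lay below all SD mice, with SDH-SD at -0.49 (SE 0.1, 95% interval -0.69 to -0.28, 1.4-fold lower, adjusted p = 0.0049) and SDL-SD at -0.32 (SE 0.09, adjusted p = 0.14). On HFD it was 3.07, 3.21, 3.29, 3.33 and 3.32 in HFD 1 to 5, 3.05, 2.66, 2.93 and 3.12 in HFDL 7, 8, 9 and 11, and 3.02, 2.73, 2.86 and 2.82 in HFDH 13, 14, 15 and 17. HFDH lay wholly below HFD (-0.39, SE 0.1, 95% interval -0.59 to -0.18, 1.31-fold lower, adjusted p = 0.027), while HFDL overlapped it (-0.3, SE 0.1, adjusted p = 0.24). All 4 detected probes of Mpv17 pointed down in the 4 DSF comparisons, from -0.14 to -0.49. The probes not used for the gene had adjusted p over all probes of 0.41, 0.06 and 0.084 in HFDH-HFD, and 0.052, 0.28 and 0.02 in SDH-SD. Leaving out HFD 3, 4 or 5, or HFDH 14 or 15, lost the call in HFDH-HFD, with adjusted p from 0.051 to 0.086.

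Nudt7, for a coenzyme A diphosphatase, was spread widely on HFD, with 6.24, 7.24, 6.44, 6.65 and 7.41 in HFD 1 to 5 against 7.03, 7.25, 6.98, 7.16 and 6.91 in SD 1 to 5. Its estimates ran from -0.32 to 0.06, none past the test. Ephx2, for soluble epoxide hydrolase, lay between 0.06 and 0.14, and Pxmp2, for a channel protein of the membrane, between -0.35 and 0.24. Pxmp4, another membrane protein, had the highest estimate of any member in the 5 comparisons, 0.59 in SDH-SD (SE 0.25, 95% interval 0.08 to 1.09, adjusted p = 0.15).

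**Figure D4:**
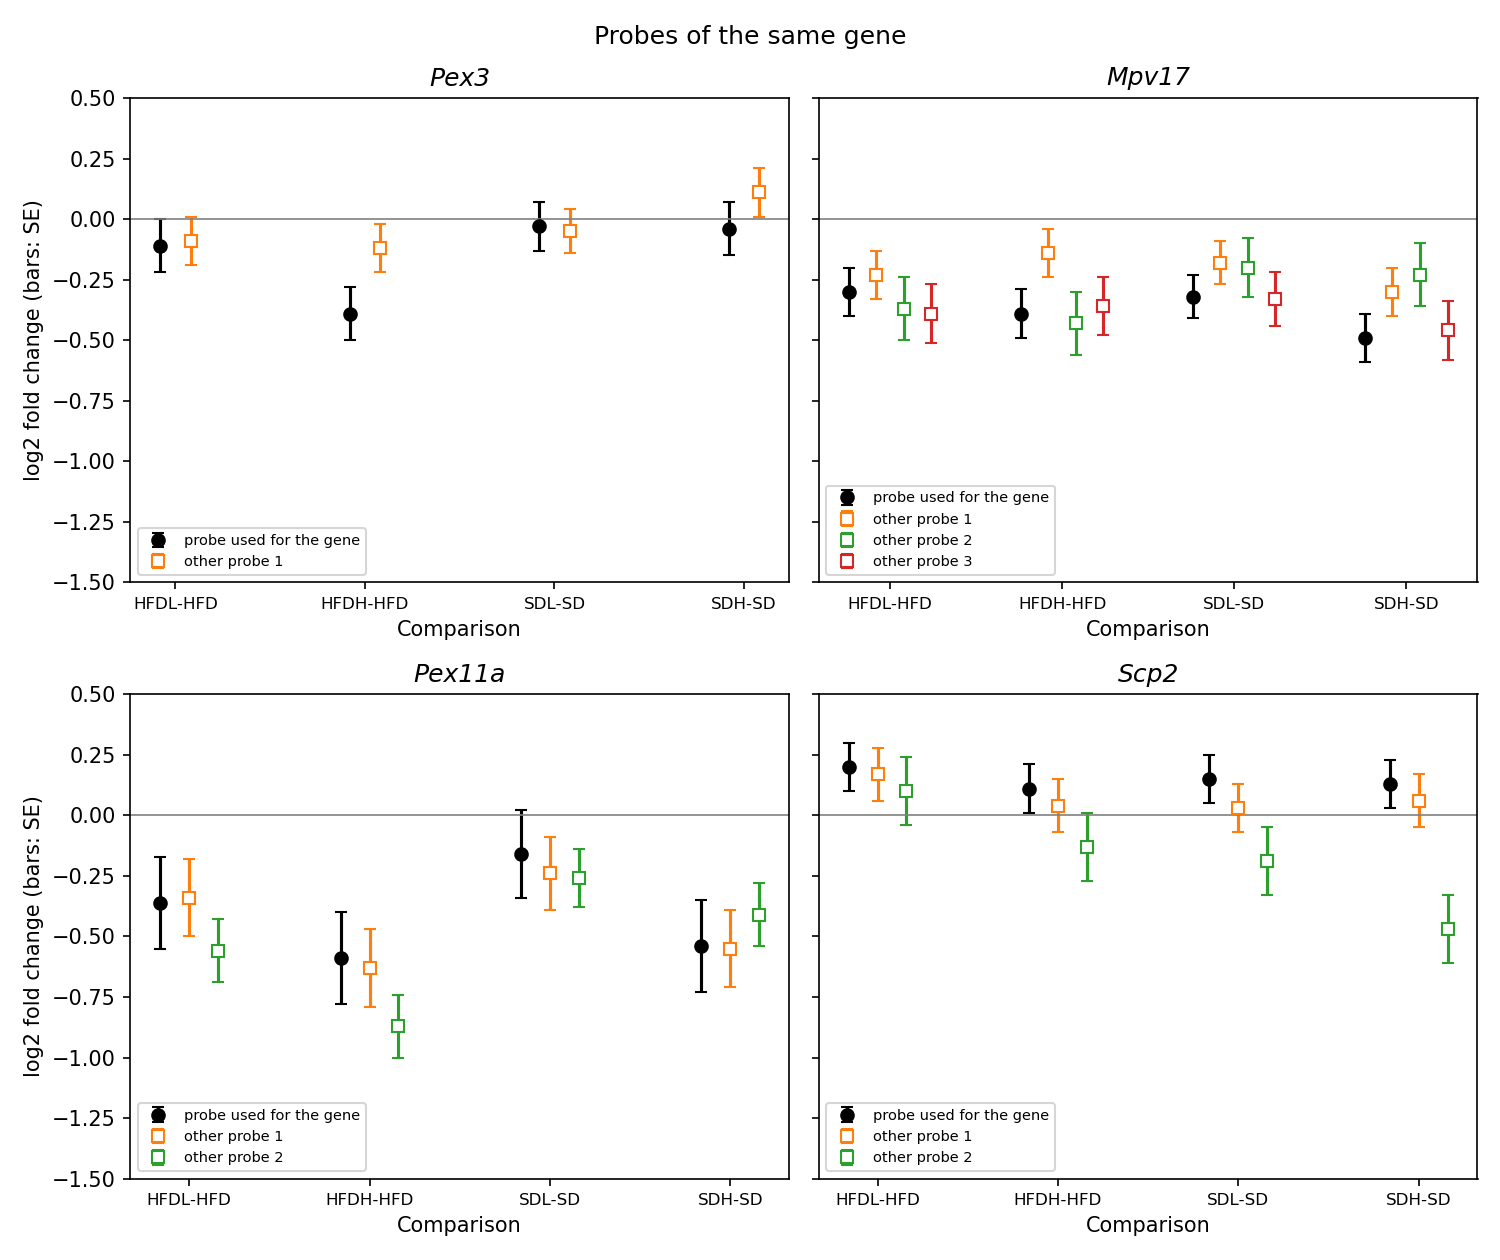
Log2 fold change (vertical axis, bars are SE) of each detected probe of Pex3, Mpv17, Pex11a and Scp2 in 4 comparisons (horizontal axis); the filled point is the probe used for the gene. The probes of Mpv17 and Pex11a all lie below 0, the 2 probes of Pex3 part in HFDH-HFD (-0.39 and -0.12), and 1 probe of Scp2 lies at -0.47 in SDH-SD while the others lie above 0.

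Several probes were detected for 13 of the 30 genes, and their signs matched within the gene for 10 of 13 in HFDH-HFD and 10 of 13 in SDH-SD. The exceptions were Nudt7, Pex5 and Scp2 in the former and Pex3, Pex6 and Scp2 in the latter.

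The 4 genes called in SDH-SD stayed past the threshold without any single mouse (adjusted p up to 0.029) and without the 2 mice with acinar transcripts (-0.59 for Pex11g, -0.73 for Nudt12, -0.48 for Mpv17). With the SD and SDH mice alone in the fit only Nudt12 passed, and with the 3 poorly detected mice put back in none did. The count in HFDH-HFD went from 2 to between 0 and 4 on leaving out single mice. When arrays were centred on their median with no scaling to a common spread, 8 members fell in HFDH-HFD and 7 in SDH-SD. Of all 9954 genes, 1028 and 1091 were then called, against 437 and 705 with that scaling. The share of lower genes among all genes called went from 67% to 96.5% and from 60.3% to 84.6%.

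No member passed a direct comparison of the doses (0 of 30 in HFDH-HFDL and in SDH-SDL, where 0% of all genes were called). Limma gave an unadjusted p under 0.05 for 3 and 2 members, all of them lower at the high dose (10% and 6.67%). Of all genes, 5.91% and 8.48% reached that level in either direction, and 2.75% and 4.98% were lower. Differences of the DSF effect between the diets did not pass either, at the low dose (0 of 30, with 0% of all genes called and 0 members at an unadjusted p under 0.05, against 4.22% of all genes) or at the high dose (0 of 30, against 0.0603%, with 6 members, or 20%, at an unadjusted p under 0.05, against 12.8% of all genes). The gap between the diets at the high dose was -0.35 for Pex3 (95% interval -0.65 to -0.04, adjusted p = 0.33), 0.47 for Nudt12 (0.02 to 0.92, adjusted p = 0.37), 0.39 for Acox3 (0.01 to 0.77, adjusted p = 0.37), 0.2 for Pex11g (-0.13 to 0.53) and 0.1 for Mpv17 (-0.19 to 0.39). A call on one diet and not on the other was thus not shown to be a difference between the diets for any of these genes.

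Within the groups, the correlations between members averaged close to 0, with pairs of opposite sign offsetting each other. The mean correlation between pairs of members, over the 27 mice after removal of the group means, was 0.04, against 0.01 over all genes, and 0 among the 5 genes that passed a test. Single pairs of members ran from -0.81 (Pex2 and Pex11a) to 0.8 (Pex19 and Pxmp4). SDH 17 and HFDH 17 were the highest of their groups in Pex2 (4.41 and 4.18) and the lowest in Pex11a (3.82 and 4.04). HFDH 17 was also the lowest of its group in Pex19 (4.52) and Pxmp4 (1.93). The correlations without these mice were not computed. The 3 ether lipid genes had a mean correlation of 0.25. These are descriptions, with no test. The spread of single mice around their group mean had a median SD of 0.19 for the members and 0.2 for all genes.

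Of 46 other peroxisome genes 32 were tested, and 3 of them were called in some comparison with a control group. In HFD-SD, Ech1, for an isomerase of unsaturated fatty acid oxidation, was 0.53 higher (SE 0.12, adjusted p = 0.028) as the only call. In SDH-SD, Eci2, for an enoyl-CoA isomerase, was 0.75 higher (SE 0.16, adjusted p = 0.0056) and Ddo, for D-aspartate oxidase, 0.64 lower (log2 fold change -0.64, SE 0.17, adjusted p = 0.023). Ddo was also lower in HFDH-HFD (-0.63, SE 0.17, adjusted p = 0.032), and no gene of this list was called in HFDL-HFD or SDL-SD, where 0 and 3 of 32 had an unadjusted p under 0.05 in limma, against 12 in HFD-SD, 4 in HFDH-HFD and 7 in SDH-SD (all genes 10.6%, 10.8%, 14%, 20% and 23.5% in that order). The list's medians were 0.15 in HFD-SD, -0.04 in HFDH-HFD and -0.07 in SDH-SD, against -0.03, -0.01 and -0.04 for all genes. Of all genes, 0.934%, 4.39% and 7.08% were called in these 3 comparisons. Of 24 PPAR-alpha targets, 17 were tested, Pex11a among them. Ppara, the receptor's own gene, fell in HFDH-HFD (-0.54, SE 0.12, adjusted p = 0.0082) and in SDH-SD (-0.44, SE 0.12, adjusted p = 0.024), and Acadm, for a mitochondrial acyl-CoA dehydrogenase, rose in HFD-SD (0.36, SE 0.08, adjusted p = 0.036). No other target was called in the 5 comparisons, and the list's medians were 0.22 in HFD-SD, -0.18 in HFDH-HFD and 0.01 in SDH-SD.

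Of the 4 genes that fell in SDH (Nudt12 is the other), the RefSeq windows around the start sites of Pex11g, Acox3 and Mpv17 are shown to set their sequences side by side (GRCm38.p6, the 250 bases before the start and 50 from it, 5′ to 3′ on the gene's strand). Capitals mark the GC box GGGCGG, the nuclear receptor core AGGTCA and the E-box CACGTG on either strand, with overlapping matches run together. Pex11g lies at chr8:3467599-3467898 (minus strand), Acox3 at chr5:35582784-35583083 (plus strand) and Mpv17 at chr5:31154202-31154501 (minus strand).
Pex11g: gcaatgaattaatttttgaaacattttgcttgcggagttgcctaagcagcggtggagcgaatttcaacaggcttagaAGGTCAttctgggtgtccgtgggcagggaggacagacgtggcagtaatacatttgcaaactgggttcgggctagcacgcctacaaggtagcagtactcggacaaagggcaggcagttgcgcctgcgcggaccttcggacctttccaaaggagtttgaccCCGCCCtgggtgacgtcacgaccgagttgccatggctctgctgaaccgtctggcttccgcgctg
Acox3: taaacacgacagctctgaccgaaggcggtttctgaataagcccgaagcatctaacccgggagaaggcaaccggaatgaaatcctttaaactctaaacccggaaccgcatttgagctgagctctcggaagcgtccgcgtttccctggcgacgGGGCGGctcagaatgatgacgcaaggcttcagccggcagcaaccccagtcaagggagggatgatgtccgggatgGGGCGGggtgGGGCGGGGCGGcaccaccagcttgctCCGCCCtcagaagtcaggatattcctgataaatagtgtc
Mpv17: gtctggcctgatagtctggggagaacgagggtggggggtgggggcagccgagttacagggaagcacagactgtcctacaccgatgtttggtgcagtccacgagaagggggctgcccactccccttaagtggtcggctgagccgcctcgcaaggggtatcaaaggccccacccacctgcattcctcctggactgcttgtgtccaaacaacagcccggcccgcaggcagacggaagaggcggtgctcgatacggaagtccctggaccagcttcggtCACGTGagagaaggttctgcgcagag

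The 3 windows had no marked motif in common to all. Acox3 held 5 GC boxes, Pex11g held 1 GC box and 1 AGGTCA, and Mpv17 held 1 CACGTG and no GC box. Among 35 windows of 28 members, 65.7% held a GC box, against 35.7% of all 32851 windows, where the median GC content was 57.3% and 52.7%. AGGTCA stood in 11.4% of the members' windows and 16.3% of all, CACGTG in 8.57% and 7.15%, and the ETS motif CCGGAAG in 17.1% and 8.86%. The element bound by PPAR-alpha with its partner receptor, here the core AGGTCA repeated after 1 base of any kind, was in 0 of the 35 windows and in 0.0396% of all, a count over these letters and this window only.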

How the data were processed

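Total RNA from liver was hybridised by the authors to Illumina MouseRef-8 BeadChips and read in GenomeStudio 2011.1. The authors deposited a table of intensities per probe, not normalized, with a detection p-value for each, and a table of scores, the Z-normalized log10 intensities. Neither holds depth, so the number of mice limits the precision. Log2 intensities were centred on each array's mean, divided by its SD and multiplied by the mean SD of all arrays (1.89), and the 2 arrays of SD 1 and of HFD 2 (r of 0.997 and 0.996) were averaged. Arrays with under 35% of 25697 probes detected were left out. Genes were named from the platform annotation (23978 probes with a symbol, 1719 without) and were represented by 1 probe, the brightest on average of those with a detection p under 0.05 in 5 or more mice, and 49 of the members' 58 probes passed that filter. A linear model with a mean per group was fitted in limma 3.58.1 (R 4.3.3), where p-values were adjusted by Benjamini-Hochberg across the 9954 genes, separately for 9 comparisons, and a two-sided threshold of 0.05. The fit was tested on simulated data. Called genes are given by mouse, with the 4 brightest uncalled members, and at most 6 called genes of each other list. The members and lists were chosen with earlier results of these data known. Mice were taken as separate animals, as the methods state biological replicates, and the column numbers of the DSF groups could not be matched to the replicate numbers of the labels. Promoter windows came from RefSeq. Alternatives are given in the closing section.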

Additional observations from a re-analysis of the deposited data

Results flagged for a closer look

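For 11 of the 180 sets of a member's values in a group (6.11%), the highest or lowest mouse stood apart from the others by more than the 95% limit of Dixon's test, which chance alone gives in about 1 in 20 sets. High mice were Pex2 in HFDH 17 (4.18, others 3.57 to 3.65), Pex5 in HFD 1 (3.42, others 3.09 to 3.16), Pex26 in HFD 5 (1.63, others 0.56 to 0.84), Agps in HFD 5 (1.09, others 0.54 to 0.67), Far1 in HFDL 8 (-0.51, others -1.04 to -0.97) and Pxmp2 in HFDH 17 (4.67, others 4.25 to 4.31). Low mice were Pex6 in SDH 17 (4.03, others 4.75 to 4.81), Pex6 in HFD 1 (4.23, others 4.6 to 4.73), Pex11g in SDL 8 (2.33, others 2.79 to 2.9), Pex14 in SDL 10 (2.98, others 3.23 to 3.32) and Mpv17 in SDL 7 (2.83, others 3.06 to 3.14). SDH 17 was also the mouse with the highest acinar transcripts, whose part in its Pex6 value was not tested.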

How the results depend on the processing

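No estimate for the called or nearly called members changed sign under any alternative run. The number of members called was 0 in HFD-SD under every one. In HFDH-HFD (2 members) it was 0 over all 30 mice and with only the groups compared, 1 with neqc and with the methods' criteria, 4 without the mice with acinar transcripts, 6 with array quality weights and 8 with median centring. In SDH-SD (4 members) it was 0 over all 30 mice, 1 with only the groups compared and 7 with median centring, and with array quality weights it was 6, of which Pxmp4 was higher and 5 were lower. Quantile normalization, neqc, the mean of all probes and the methods' criteria gave 5 in SDH-SD, with Pex11a added. In HFDL-HFD it was 1 with median centring. In SDL-SD it was 1 with array quality weights and 2 with the methods' criteria, which also called 1 in HFDH-HFDL and 1 in SDH-SDL. Leaving out each mouse gave 0 to 4 in HFDH-HFD, 0 to 1 in SDL-SD (1 without HFDH 17) and 4 to 5 in SDH-SD. The number of all genes called moved as well. In HFDH-HFD it was 437 in the fit used above, 19 over all 30 mice, 397 with neqc and 1028 with median centring. In SDH-SD it was 705, 7, 626 and 1091 in that order. With array quality weights 767 genes were called in HFD-SD, against 93 in the fit used above. The members' counts thus do not stand against a fixed share of all genes. Median centring moved the median of all genes to -0.12 in HFD-SD, -0.13 in HFDH-HFD and -0.11 in SDH-SD, where the members' medians were -0.11, -0.31 and -0.16. It also raised the share of lower genes among all called from 47.3% to 83.6% in HFD-SD, from 84.8% to 96.1% in HFDL-HFD and from 55.4% to 70.3% in SDL-SD (43.1% with neqc). Over all 30 mice the estimates of the called members ran from -1.79 (Pex11g in SDH-SD) to -0.53 (Pex3 in HFDH-HFD), with adjusted p from 0.36 to 0.95. Pex3 was also not called with quantile normalization (0.067), neqc (0.079), the mean of its probes (0.083) and only the groups compared (-0.12), and Mpv17 in HFDH-HFD not with neqc (0.054) and only the groups compared (0.056). With only the groups compared, -0.12 is the value of the second probe of Pex3, which replaced the first. The methods' criteria called neither Pex3 nor Mpv17 in HFDH-HFD, but Pex11a, and with quantile normalization and the mean of all probes the count there stayed at 2 with Pex11a in place of Pex3. Same-numbered SD and HFD mice did not deviate together (r from -0.2 to 0.21), so the numbers were not taken to pair them. With the replicate number as a block, the intensities gave 0 members in HFD-SD. On the authors' scores, which carry the labels' numbers for all groups, the block gave 0 in HFD-SD, 3 in HFDH-HFD and 4 in SDH-SD, against 0, 2 and 4 without it. Apart from that change of probe for Pex3, the causes of these changes were not tested.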
